A study of Rattus norvegicus with 32 samples.

Results

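Integrins are receptors of the cell surface that hold a cell to its extracellular matrix. Each is a pair of an alpha and a beta chain, and the pair decides which matrix protein is bound. Laminins, the main glycoproteins of basement membranes, are built from an alpha, a beta and a gamma chain. Fibronectin, vitronectin, tenascin-C and osteopontin are further ligands of integrins. In the brain, astrocytes rest on the laminins of the vascular basement membrane through their endfeet, and astrocytes that become reactive are known to change their integrins and to deposit fibronectin, tenascin-C and osteopontin.

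The genes examined were those named Itga or Itgb, the laminin chains (Lama, Lamb or Lamc with a digit), and the ligand genes Fn1, Vtn, Tnc and Spp1. Apart from these 4 ligands they were taken by symbol alone. There were 41 such genes among 18399 in all, with 39 of 17825 genes in the table for 50 nm particles and 41 of 18037 in that for 500 nm particles. Itgad and Lamc3 were found for 500 nm only. By role they were 17 integrin alpha subunits, 6 beta subunits, 10 laminin chains, 4 glycoprotein ligands, and 4 genes that carry the Itgb prefix without coding for a subunit. The subunits Itgb1, Itgb6 and Itgam and the chains Lama3 and Lamb4 were not analysed here.

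RNA-seq was performed on astrocytes that had been derived from neural stem cells of the rat fetus and plated on Geltrex, a basement membrane extract that itself holds laminin. The cells were exposed for 7 days to polystyrene spheres of 50 nm or 500 nm at 1, 10 or 100 µg/mL, or to none. For its viability assay the study names non-fluorescent spheres (Polybead), renewed with the medium every few days. The bead type used for RNA-seq is not named. Each particle size had a control group of its own, so that 32 libraries formed 8 groups of 4. Nothing in the labels says whether the 4 libraries of a group came from separate cultures.

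For each gene and dose, the deposited tables give a fold change against the control of the same size and an adjusted p, both made by the authors with DESeq2, and no value per library. Fold changes are linear ratios, negative for a fall and then the control over the exposed level with a minus sign, and were shrunk toward no change where the data behind them were imprecise. Read depth, levels of expression and the spread between replicates are therefore unknown, so no error other than the adjusted p stands beside a value. Since levels are unknown, the astrocyte label could not be checked against marker levels. In such bulk samples, fewer cells of a type and less RNA per cell cannot be told apart. By the limits of the study, a gene up or down by 1.5 times or more at an adjusted p under 0.05 was a differentially expressed gene (DEG).

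At 100 µg/mL, few of the 41 genes were DEGs, and all of those were upregulated. The fibronectin receptor subunit Itga5, its ligand Fn1, which codes for fibronectin, and Spp1, which codes for osteopontin, were DEGs with both particle sizes. With 500 nm particles another 5 genes joined them, namely the subunits Itgax, Itgb8 and Itga8 and the laminin chains Lamb1 and Lama4. No member was a downregulated DEG with either size. Among all genes with an adjusted p below 1, such DEGs numbered 101 of 13998 with 50 nm and 505 of 15561 with 500 nm.

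With 50 nm particles, 3 of the 34 members with an adjusted p below 1 were DEGs, a share of 8.82% against 3.79% of all such genes. All 3 were upregulated, as were 3.07% of all genes. Of these 3, Fn1 and Spp1 belong to the 4 ligands added by name. Among the others, 1 of 18 integrin subunits (5.56%) and 0 of 8 laminin chains were DEGs with 50 nm. With 500 nm particles, 8 of 36 members were DEGs, or 22.2% against 8.19% of all genes, again all upregulated, where 4.94% of all genes were. By an adjusted p under 0.05 alone, the members past it numbered 5 of 34 with 50 nm (14.7%, against 10.9% of all genes) and 9 of 36 with 500 nm (25.0%, against 15.7%). The members were chosen with earlier results of these tables known, and no test was made of the list. The median log2 fold change over the members was 0.03 with 50 nm and 0.09 with 500 nm, beside -0.00 and -0.01 over all genes, so that the typical member stood close to no change. For each size 5 members carried an adjusted p of exactly 1, which was not read as a test result.

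**Figure D1:**
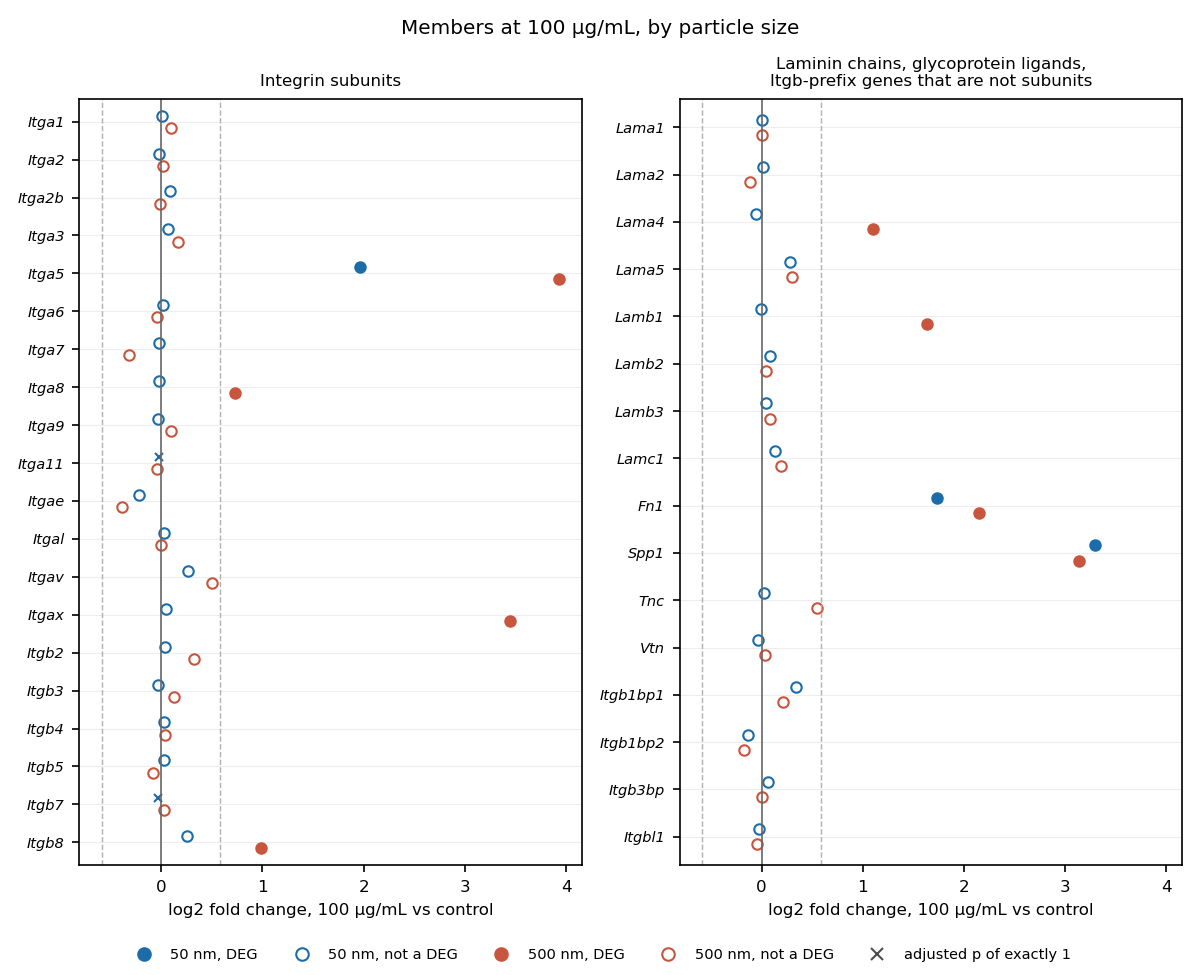
Log2 fold change of the 36 members with an adjusted p below 1 for at least 1 size at 100 µg/mL against that size's control (horizontal axis), as deposited and shrunk, with 50 nm in blue and 500 nm in red; filled points are DEGs, open points are not, crosses have an adjusted p of exactly 1, and dashed lines mark a fold change of 1.5. Itga5, Fn1 and Spp1 stand right of the dashed lines for both sizes. Itgax, Lamb1, Lama4, Itgb8 and Itga8 do so for 500 nm, with Itga8 the closest to the line. The other points lie between the dashed lines.

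The sequences before the start sites of the members that moved most are shown so that the genes can be seen together. Itga5 and Spp1 were DEGs with both sizes, and Itgax had the second largest fold change with 500 nm. RefSeq promoter windows (GRCr8, another build than the authors aligned to) were matched for 31 of the 41 members, and that of Fn1 was not among them. Each line below holds the 250 bases before the start, read 5′ to 3′ on the strand of the gene. Itga5 lies at chr7:136381306-136381555 on the minus strand, Spp1 at chr14:5619805-5620054 on the minus strand and Itgax at chr1:192149799-192150048 on the plus strand. For Spp1 and Itgax the window falls inside the gene's RefSeq span, so that other transcripts may start elsewhere. Capitals mark the letters found in a search for 5 motifs on both strands.
Itga5: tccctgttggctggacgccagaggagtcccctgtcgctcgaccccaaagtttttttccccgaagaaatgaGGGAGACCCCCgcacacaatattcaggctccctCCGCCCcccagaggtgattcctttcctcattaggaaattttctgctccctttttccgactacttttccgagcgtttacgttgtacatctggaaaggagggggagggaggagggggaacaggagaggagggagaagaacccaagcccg
Spp1: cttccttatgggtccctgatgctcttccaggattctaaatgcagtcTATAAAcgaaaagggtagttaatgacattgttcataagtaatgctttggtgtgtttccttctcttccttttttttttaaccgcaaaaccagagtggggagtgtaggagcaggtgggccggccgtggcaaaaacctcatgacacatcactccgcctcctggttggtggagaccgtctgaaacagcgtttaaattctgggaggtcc
Itgax: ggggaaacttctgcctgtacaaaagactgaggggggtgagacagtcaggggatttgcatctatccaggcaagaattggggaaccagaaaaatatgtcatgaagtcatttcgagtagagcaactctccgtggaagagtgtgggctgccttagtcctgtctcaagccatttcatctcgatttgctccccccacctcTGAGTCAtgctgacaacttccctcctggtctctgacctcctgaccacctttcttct
In Itga5 the first capitals match the motif of NF-κB, searched by its consensus, with overlapping matches, and the second the GC box GGGCGG on the opposite strand. In Spp1 they are TATAAA and in Itgax the AP-1 motif, TGACTCA or TGAGTCA. No window shown held the cAMP response element TGACGTCA, which contains neither form of the AP-1 motif. Among all 33469 windows of the same length, 6.33% held the NF-κB motif, 30.5% the GC box, 12.9% TATAAA, 4.05% the AP-1 motif and 1.59% the cAMP response element. A match of letters is a description and says nothing of binding in these cells.

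Among the ligands, Spp1 (ENSRNOG00000043451) showed the largest change. Osteopontin is a secreted phosphoprotein whose RGD sequence binds several integrins. At 100 µg/mL its level was multiplied by 9.88 for 50 nm (adjusted p = 0.00177) and 8.82 for 500 nm (adjusted p = 8.82e-04). Spp1 ranked 29 among the 430 upregulated DEGs for 50 nm and 100 among the 769 for 500 nm, and was the only DEG of the members whose fold change was not higher with the larger particles. Fn1 (ENSRNOG00000014288), coding for the fibronectin of both plasma and matrix, had 3.32 for 50 nm (adjusted p = 9.65e-06) and 4.45 for 500 nm (adjusted p = 0.0111). It ranked 108 and 200 among the upregulated DEGs. For Tnc, the tenascin-C gene, the fold change was 1.01 for 50 nm (adjusted p = 0.828) and 1.47 for 500 nm (adjusted p = 0.0773), short of both limits. Vtn, coding for vitronectin, had -1.03 (adjusted p = 0.444) and 1.02 (adjusted p = 0.830). Of the 4 ligands, Fn1 and Spp1 were thus DEGs with both sizes, and Tnc and Vtn with neither. That share of 50.0% for each size stands beside 3.79% (50 nm) and 8.19% (500 nm) of all genes.

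Of the laminin chains, Lamb1 and Lama4 were upregulated, and they passed the limits with 500 nm particles and not with 50 nm. Lamb1 (ENSRNOG00000005678) codes for the most widely shared beta chain, and its fold change was 3.12 for 500 nm (adjusted p = 0.00803) and -1.01 for 50 nm (adjusted p = 0.851). Lama4 (ENSRNOG00000000599), an alpha chain of vascular basement membranes, had 2.15 for 500 nm (adjusted p = 0.0120) and -1.04 for 50 nm (adjusted p = 0.624). With 50 nm both genes thus lay on the other side of no change, by amounts that did not pass the test. Lamc1, the gamma chain found in most laminins, had 1.10 for 50 nm (adjusted p = 0.289) and 1.14 for 500 nm (adjusted p = 0.317), and so did not rise with these partner chains by the test used.

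The other laminin chains did not pass the test. Lama5 had 1.22 for 50 nm (adjusted p = 0.0965) and 1.23 for 500 nm (adjusted p = 0.190), the largest value of the group for 50 nm and the third largest for 500 nm. Lama2, the alpha chain of muscle basement membranes and of those at astrocyte endfeet, had 1.00 (adjusted p = 0.944) and -1.08 (adjusted p = 0.474). Lama1, Lamb2 and Lamb3 had log2 fold changes between -0.00 and 0.08 with both sizes. Lamc3 was given an adjusted p of exactly 1 for 500 nm. In all, 0 of 8 laminin chains with an adjusted p below 1 were DEGs with 50 nm and 2 of 8 with 500 nm, beside 3.79% and 8.19% of all genes.

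Among the integrin subunits, Itga5 (ENSRNOG00000057451) changed most. It pairs with the beta chain of Itgb1 to form the classical receptor for fibronectin. The fold change was 3.88 for 50 nm (adjusted p = 6.13e-05) and 15.3 for 500 nm (adjusted p = 3.06e-08), the largest of any member for 500 nm. It ranked 85 among the 430 upregulated DEGs of 50 nm and 45 among the 769 of 500 nm. The value with 500 nm was 3.93 times that with 50 nm, whereas the corresponding ratio was 1.34 for its ligand Fn1. Whether these responses differ between the sizes was not tested, as that needs values per library.

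The other subunits that bind the RGD sequence, found in fibronectin, vitronectin and osteopontin, gave smaller values. Itgav (ENSRNOG00000004912), the alpha chain shared by the vitronectin receptors, rose with both sizes while staying below the fold change limit, with 1.19 for 50 nm (adjusted p = 0.0287) and 1.42 for 500 nm (adjusted p = 0.00308). Itgb8 (ENSRNOG00000006569), which pairs with Itgav and is known to release active TGF-β from its latent form, had 1.98 for 500 nm (adjusted p = 7.06e-04) and 1.19 for 50 nm (adjusted p = 0.164). Itga8 (ENSRNOG00000016538), a partner of Itgb1 that binds nephronectin, had 1.65 for 500 nm (adjusted p = 0.0236) and -1.02 for 50 nm (adjusted p = 0.853). The further partners of Itgav did not pass the test. Itgb3 had -1.02 for 50 nm (adjusted p = 0.686) and 1.09 for 500 nm (adjusted p = 0.467), and Itgb5 had 1.02 (adjusted p = 0.858) and -1.06 (adjusted p = 0.753). Itga2b, the platelet alpha chain, had 1.07 (adjusted p = 0.390) and -1.01 (adjusted p = 0.964). Of the 7 RGD-binding subunits analysed, 1 was a DEG with 50 nm and 3 with 500 nm, beside 3.79% and 8.19% of all genes. Their median log2 fold change was 0.09 and 0.50, beside -0.00 and -0.01 over all genes. Over all integrin subunits, 1 of 18 was a DEG with 50 nm (5.56%) and 4 of 20 with 500 nm (20.0%). The median log2 fold change over all those subunits was 0.03 and 0.07.

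The subunits of laminin receptors gave no DEG. Itga3 had 1.05 for 50 nm (adjusted p = 0.489) and 1.12 for 500 nm (adjusted p = 0.251), and Itga6 had 1.02 (adjusted p = 0.887) and -1.03 (adjusted p = 0.886). Itga7, an alpha chain of muscle and glia, had -1.01 (adjusted p = 0.907) and -1.25 (adjusted p = 0.121). Itgb4, the partner of Itga6 in epithelia, had 1.02 and 1.03. With 500 nm particles the laminin chains Lamb1 and Lama4 were upregulated. Of the 4 laminin-binding subunits, 0 passed the test, beside 15.7% of all genes. With so few genes, no contrast between the chains and their receptors can be read from this count.

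The collagen-binding alpha chains Itga1, Itga2, Itga10 and Itga11 lay between -1.03 and 1.07 with both sizes, and none passed the test where an adjusted p below 1 was given. Itga9, which binds tenascin-C and osteopontin, had -1.02 for 50 nm (adjusted p = 0.656) and 1.07 for 500 nm (adjusted p = 0.584).

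Of the integrin subunits typical of leukocytes, only Itgax was a DEG, with 500 nm particles and not with 50 nm. Itgax (ENSRNOG00000036703), also called CD11c, is a marker of dendritic cells and of activated microglia. Its fold change was 10.9 for 500 nm (adjusted p = 0.00103), rank 73 of the 769 upregulated DEGs, and 1.03 for 50 nm (adjusted p = 0.353). Its beta partner Itgb2 had 1.25 for 500 nm (adjusted p = 0.185) and 1.03 for 50 nm (adjusted p = 0.659). Itgal, another partner of Itgb2, had 1.02 for 50 nm (adjusted p = 0.683) and a log2 fold change of -0.00 for 500 nm (adjusted p = 0.990). Itgae had -1.17 (adjusted p = 0.153) and -1.31 (adjusted p = 0.0782), the lowest value of any member for each size. Itgb7 had 1.02 for 500 nm (adjusted p = 0.786), and Itga4 and Itgad were given an adjusted p of exactly 1 at 100 µg/mL for each size that lists them. In the RefSeq gene table Itgax is also an older name of the neighbouring Itgad, and the symbols here are those of the deposited tables.

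Markers of microglia and other leukocytes were read beside Itgax. Of 8 markers, 6 were in the tables. With 500 nm, Cd68, a lysosomal protein abundant in phagocytes, was upregulated with 1.80 (adjusted p = 0.0153). The other 4 with an adjusted p below 1 did not pass the test, with Tmem119 at 1.08 (adjusted p = 0.170), Csf1r at 1.02 (adjusted p = 0.808), Spi1 at -1.13 (adjusted p = 0.284) and P2ry12 at a log2 fold change of -0.00 (adjusted p = 0.993), and Aif1 had an adjusted p of exactly 1. With 50 nm, 0 of the 2 markers with an adjusted p below 1 passed. The part of such cells in the value of Itgax was not tested. Among markers of other cell types, 1 of the 2 endothelial genes in the tables passed with 500 nm, Kdr being upregulated (2.10, adjusted p = 0.0330) and Tek at -1.02 (adjusted p = 0.901), and 0 of 2 passed with 50 nm. Of the 2 fibroblast and mural cell genes, Pdgfrb was downregulated with both sizes (-1.54, adjusted p = 0.0144, and -2.39, adjusted p = 1.33e-09), and Col1a1 did not pass with either, at -1.03 for 500 nm (adjusted p = 0.624). Of 8 astrocyte markers, Gfap was upregulated with 50 nm (1.77, adjusted p = 0.00803) and had 1.03 with 500 nm (adjusted p = 0.841). Aqp4 and Gja1 were downregulated with 500 nm (-2.62, adjusted p = 1.17e-07, and -2.32, adjusted p = 3.66e-07). With 50 nm, Aqp4 fell by less than the fold change limit (-1.20, adjusted p = 0.0378) and Gja1 had -1.03 (adjusted p = 0.795). None of the 3 neuronal and 7 oligodendrocyte lineage markers in the tables was a DEG with either size. The part of other cell types in the laminin values was not tested.

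The genes with the Itgb prefix that do not code for subunits gave 1 change. Itgb1bp1, an intracellular protein that binds the tail of the Itgb1 chain, rose with 50 nm, with 1.26 (adjusted p = 7.23e-05), below the fold change limit. With 500 nm it had 1.16 (adjusted p = 0.101). Itgb1bp2, Itgb3bp and Itgbl1 lay between -1.12 and 1.04 with both sizes and did not pass the test.

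The responses to the particle sizes were set side by side as a description. Each size was a series with control libraries of its own, so a difference between sizes cannot be told from a difference between series. Of the 39 members in both tables, 24 lay on the same side of no change (61.5%), against 70.2% of all 17463 genes in both tables. Most of these members were close to no change. The 3 DEGs shared by the sizes moved the same way, 5 were DEGs with 500 nm only and 0 with 50 nm only. Over all genes in both tables, 422 were DEGs with both sizes, 852 with 500 nm only and 109 with 50 nm only, so the excess for 500 nm was general. The change was larger in size with 500 nm for 28 of the 39 members (71.8%), against 67.6% of all genes. The fold change with 500 nm was 10.6 times that with 50 nm for Itgax, 3.15 times for Lamb1, 2.24 times for Lama4, 1.68 times for Itga8, 1.67 times for Itgb8 and 0.893 times for Spp1. Shrinkage acts on each value, so these ratios are descriptions, and passing the limits with one size does not show a difference between sizes.

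**Figure D2:**
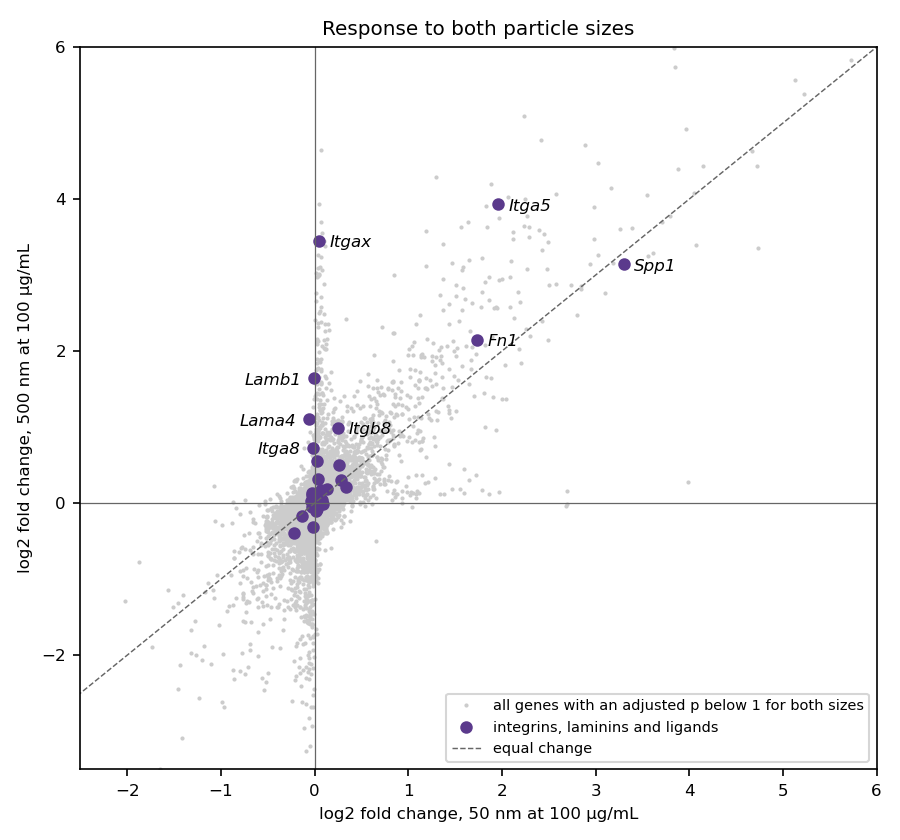
Log2 fold change at 100 µg/mL with 500 nm (vertical axis) against that with 50 nm (horizontal axis), as deposited and shrunk; purple points are the 34 members and grey points the 13982 genes with an adjusted p below 1 for both sizes, 15 of which lie outside the axes, and the dashed line marks equal change. Itga5 lies above the line at 1.96 and 3.93 and Spp1 just below it at 3.30 and 3.14, while Itgax and Lamb1 lie near 0 with 50 nm and at 3.45 and 1.64 with 500 nm.

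At 1 and 10 µg/mL no member passed the limits with either size. This holds for all 39 members with 50 nm and all 41 with 500 nm, beside 0% of all genes at 1 µg/mL and 0.00562% (50 nm) and 0.00555% (500 nm) at 10 µg/mL, that is 1 gene for each size. At 10 µg/mL the fold change farthest from no change was that of Itgav with 500 nm, above the control by 7.6e-05 of the control level, and with 50 nm that of Itgb3bp, lower by 2.2e-05. At 1 µg/mL no member departed by more than 8.0e-06. Itga5 had 1.000002 at 10 µg/mL with each size, Fn1 1.000002 with 50 nm and 1.000001 with 500 nm, and Spp1 1.000001 with each. Of the DEGs of 500 nm alone, Itgb8 had 1.000003 at 10 µg/mL of these particles, Itgax 1.000002, and Lamb1, Lama4 and Itga8 1.000001, and with 50 nm the same 5 genes lay between -1.000002 and 1.000001 at both low doses. At 1 µg/mL the 8 DEGs lay between -1.000003 and 1.000001 with either size. Values so near to no change are what the shrinkage left, and a larger, imprecise change before shrinkage cannot be told from them. The 3 doses of a size share their controls. At these doses the adjusted p of every member was the same within a dose and size, being 0.999819 for 50 nm and 0.999895 for 500 nm at 10 µg/mL, so unadjusted p-values could not be recovered.

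Inside the cell, the tails of integrin beta chains are linked to actin by talin, kindlin, the ILK complex and other proteins of focal adhesions. Of 30 such genes listed, 29 were in the tables. With 50 nm, 5 of the 26 with an adjusted p below 1 rose and 0 fell (19.2% past an adjusted p of 0.05, against 10.9% of all genes), and 1 was a DEG, a share of 3.85% that lies at the 3.79% of all genes. With 500 nm, 7 of 28 rose and 1 fell (28.6%, against 15.7% of all genes), and 5 were DEGs (17.9%, against 8.19%). Cav1, the caveola coat protein caveolin, was a DEG with both sizes, with 2.15 (adjusted p = 6.79e-05) and 1.94 (adjusted p = 0.0216). Ptk2b, the kinase related to focal adhesion kinase, rose to 1.42 for 50 nm (adjusted p = 0.0156) and to 1.82 for 500 nm (adjusted p = 5.37e-04), where it was a DEG. The actin-linked genes Zyx (1.55, adjusted p = 2.33e-05), Vasp (1.52, adjusted p = 1.44e-05) and Actn1 (1.68, adjusted p = 0.0497) were DEGs with 500 nm, the last just inside the limit of the adjusted p. Talin activates integrins, and of its genes Tln1 rose to 1.34 for 500 nm (adjusted p = 3.94e-04) and had 1.12 for 50 nm (adjusted p = 0.0527). The other talin gene, Tln2, did not pass the test, with -1.14 for 50 nm (adjusted p = 0.231) and -1.21 for 500 nm (adjusted p = 0.140). Rsu1, of the ILK complex, rose with both sizes below the fold change limit (1.42, adjusted p = 2.45e-08, and 1.40, adjusted p = 2.98e-04). Parvb, a parvin of the same complex, fell with 500 nm (-1.45, adjusted p = 0.0155). The core genes Ilk, Vcl, Ptk2, Pxn and Fermt2 did not pass the test with either size, lying between -1.03 and 1.20.

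Other matrix genes and basement membrane partners that meet integrins were read from a list of 25, of which 23 were in the tables. With 50 nm 2 of 21 were DEGs, both upregulated (9.52%, against 3.79% of all genes), and with 500 nm 5 of 21 were upregulated and 1 downregulated (28.6% in all, against 8.19%). Thbs2, a matricellular thrombospondin, was upregulated with both sizes, with 4.69 (adjusted p = 2.61e-07) and 34.2 (adjusted p = 3.87e-20), a larger change with 500 nm than that of any integrin or laminin gene. Edil3, a secreted RGD ligand of Itgav receptors, followed with 3.64 (adjusted p = 6.27e-05) and 7.89 (adjusted p = 4.30e-09). With 500 nm, Tnn (tenascin-N, 6.82, adjusted p = 0.00124), Postn (periostin, 2.17, adjusted p = 0.0365) and Nov (2.08, adjusted p = 0.0208) were DEGs as well. The downregulated DEG was Npnt, coding for nephronectin, a ligand of the Itga8 receptor, with -2.42 for 500 nm (adjusted p = 5.34e-06) and -1.06 for 50 nm (adjusted p = 0.446). Mfge8, an RGD ligand related to Edil3, fell with both sizes, by amounts below the limit (-1.35, adjusted p = 0.0110, and -1.39, adjusted p = 0.00306). Among the basement membrane partners, the laminin-binding nidogens Nid1 and Nid2 did not pass the test, Agrn fell with 50 nm (-1.20, adjusted p = 0.0202) and the laminin receptor Dag1 fell with 500 nm (-1.24, adjusted p = 0.0279).

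Membrane proteins that associate with integrins were read from a list of 12, all in the tables. With 50 nm 2 of 10 were DEGs (20.0%, against 3.79% of all genes) and with 500 nm 3 of 12 (25.0%, against 8.19%), all of them upregulated. Cd44, a receptor for hyaluronan that also binds osteopontin, had 3.21 for 50 nm (adjusted p = 3.61e-05) and 6.20 for 500 nm (adjusted p = 2.42e-15). Plaur, the urokinase receptor, had 9.56 for 500 nm (adjusted p = 0.00183) and an adjusted p of exactly 1 with 50 nm. Cd63, a tetraspanin of late endosomes, had 2.00 (adjusted p = 5.25e-16) and 1.82 (adjusted p = 4.13e-05). Slc3a2, which binds beta chains, and Cd82 fell with 500 nm below the fold change limit (-1.31, adjusted p = 1.47e-06, and -1.29, adjusted p = 0.0231). Also below that limit, Cd47 rose with 500 nm (1.24, adjusted p = 0.0182) and Bsg with 50 nm (1.16, adjusted p = 0.0443). By an adjusted p under 0.05 alone, 3 of 10 rose and 0 fell with 50 nm (30.0%, against 10.9% of all genes). With 500 nm 4 of 12 rose and 2 fell (50.0%, against 15.7%).

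**Figure D3:**
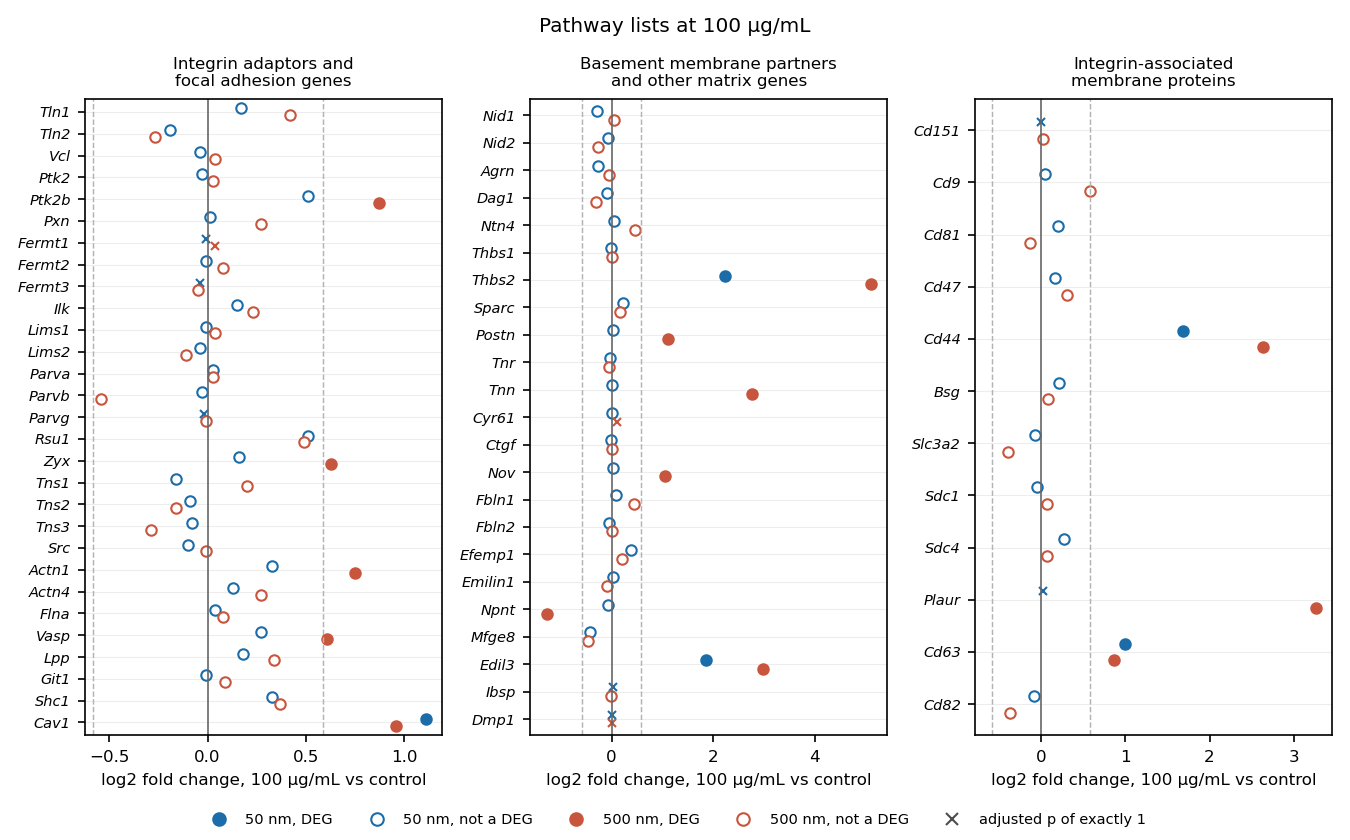
Log2 fold change at 100 µg/mL (horizontal axes, drawn to a separate scale in each panel) of the genes of 3 lists, with 50 nm in blue and 500 nm in red, DEGs filled, others open, crosses for an adjusted p of exactly 1, and dashed lines at a fold change of 1.5. Thbs2 and Edil3 among matrix genes and Cd44 among membrane proteins are far to the right for both sizes, and Npnt is the only filled point on the left.

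Reads of other genes can bear on some of these values. In the RefSeq gene table of GRCr8, Itga8, Itgav and Lama4 overlap with unnamed lncRNA or pseudogene loci that have no values here, and the sources used here do not give the strand setting of the counting. No gene in that table overlaps with Itga5, Fn1, Spp1, Itgax, Itgb8 or Lamb1.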

How the data were processed

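Rat astrocyte RNA-seq libraries, in 8 groups of 4 by the sample labels, were processed by the authors, who trimmed reads with bbduk, aligned them with STAR 2.7.1a to Rnor_6.0 and counted them per gene with featureCounts 2.0.0, versions per the submitters' processing notes. The authors compared each dose with the control of its size with DESeq2 1.26.0. Both deposited tables hold only the authors' signed linear fold changes, shrunk with apeglm, and their Benjamini–Hochberg adjusted p-values across all genes. These comparisons are the authors' own and were used as deposited, as no value per library was at hand; nothing was refitted. Columns were matched to groups by the letters of the sample titles. The count-based tests planned for values per library could not be run, so no error beyond the adjusted p is given, and depth is unknown.

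From these values DEGs were counted (adjusted p under 0.05, fold change of at least 1.5), with medians, ranks and shares, over genes with an adjusted p below 1. The counting was tested on simulated data. The genes, lists and limits were chosen with earlier results of these data known. Of the members, 1 is not reported here by name, and from the lists those that were DEGs for either size were named; Tln1, Rsu1, Parvb, Mfge8, Agrn, Dag1, Slc3a2, Cd82 and the genes named as not passing were chosen after their values were seen. Alternatives were other limits and other sets of members. RefSeq tables of GRCr8 gave promoter windows and overlaps. Python 3.11.15, numpy 2.4.6, pandas 2.3.3 and matplotlib 3.10.9 were used.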

Additional observations from a re-analysis of the deposited data

How the results depend on the processing

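No member passed the limits at 1 or 10 µg/mL under any limit tried, and unadjusted counts at these doses could not be recovered. At 100 µg/mL with 50 nm, the DEGs numbered 3, and 5 without the fold change limit, which adds Itgav and Itgb1bp1. With 500 nm they numbered 8, and 5 at an adjusted p under 0.01, which leaves out Fn1, Itga8 and Lama4; a fold change limit of 2 left 6. The median log2 fold change over all members in the table, those with an adjusted p of exactly 1 included, was 0.02 with 50 nm and 0.04 with 500 nm, and without the 4 genes that are not subunits it was 0.10 with 500 nm. The count of members moving the same way with both sizes was 24, or 20 among those with an adjusted p below 1. No paired analysis was possible because the tables hold no values per library; for the same reason no replicate was left out and no other normalization or filter was run.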
